A study of Mus musculus with 6 samples.

Results

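The 491 cells described here are alveolar type II (ATII) cells of a single sequencing library, the first to appear in the deposited matrix and called library A below. They were the 3% of its 16367 cells with the highest share of unique molecular identifiers (UMIs, each standing for 1 captured transcript) from 8 interferon-stimulated genes, Isg15, Ifit1, Ifit3, Ifit3b, Irf7, Rsad2, Usp18 and Oasl2, called the rule genes. The matrix held 36540 cells in all after quality filters. ATII cells, the surfactant-secreting cells of the lung alveolus, were taken from mice of the genotype IL4Ra WT. The labels describe 3 gene expression libraries: freshly sorted cells of day 0 from young and old mice, cells of day 13 from young and old mice, and cells of day 13 from young mice alone. The cultured cells grew as alveolarspheres without serum or feeder cells. The design adds a cytokine at 10 ng/ml on day 3, named IL-4 in the title and IL14 in the design text, or PBS as control. Each library mixed animals or treatments whose tags are not used here, so no cell has a known age or treatment. No label ties a barcode prefix to a library either, and whether library A is the fresh one cannot be told from the labels. All comparisons below are therefore between cells of 1 library. They have no replicate, and no p-value can be given.

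Interferons are secreted proteins that bind receptors on the cell surface and act through Janus kinases, STAT proteins and interferon regulatory factors. These factors switch on genes for RNA and DNA sensors, antiviral effectors, immunity-related GTPases and the machinery that presents antigen on MHC class I. ATII cells are among the epithelial cells that respond in this way to respiratory viruses.

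The members were mostly cells with 1 rule-gene UMI. Of the 491 members, 430 (87.6%) had a single UMI of the 8 genes, and 33 more (6.72%) had several UMIs of a single gene. UMIs of 2 or more of the 8 genes were found in 28 members, which is 5.70% of the members and 0.171% of library A (95% exact binomial interval 0.114 to 0.247%). These 28 cells, 20 with 2 rule genes, 6 with 3 and 2 with 5, were all the cells of the library with more than 1 rule gene. The choice also followed depth. Among cells with 1 rule UMI, the member with most UMIs in total had 4278, or 233.754 rule UMIs per 1000000, and the first cell outside had 4285, or 233.372. The 293 cells with a rule UMI that were not members, called the between cells, each had exactly 1 and a median of 4963 UMIs, against 3504 in members. The remaining 15583 cells, with no rule UMI, were the reference, with a median of 3737 UMIs. The label of an interferon signature therefore rests on several genes in 28 of the 491 members. In the other 463, called members with 1 rule gene, it rests on a single gene.

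**Figure D1:**
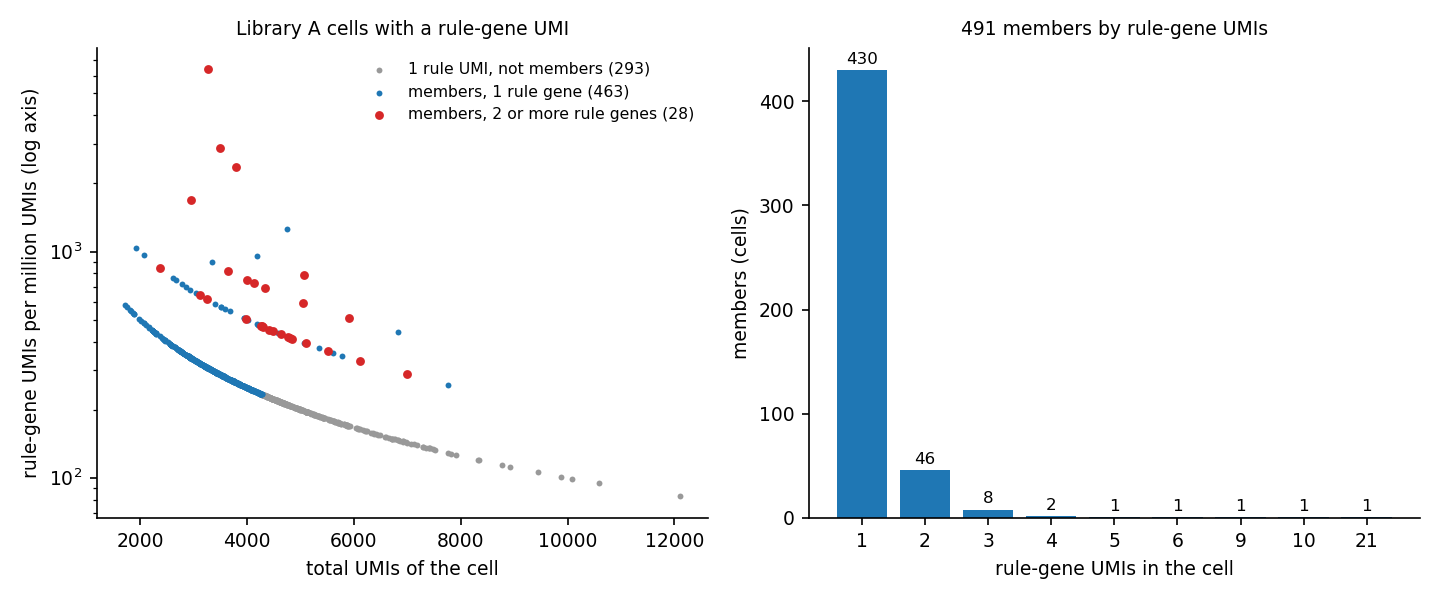
Left, rule-gene UMIs per 1000000 UMIs (log axis) against the total UMIs of the cell, for the 784 cells of library A with a rule-gene UMI. The lowest curve holds cells with 1 rule UMI, which were members up to 4278 total UMIs. Right, members (cells) by their number of rule-gene UMIs: 430 of 491 had 1.

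Few of the 8 rule genes carried the choice. Isg15, a ubiquitin-like protein that is attached to other proteins during interferon responses, gave 321 UMIs in 265 members and was the only rule gene in 240 of them. Irf7, a transcription factor that amplifies interferon production, gave 142 UMIs in 137 members and stood alone in 124. Usp18, which removes Isg15 from its targets and dampens interferon receptor signalling, gave 46 UMIs in 44 members. Oasl2, of the oligoadenylate synthetase family, gave 45 UMIs in 40 members, and Rsad2, the antiviral enzyme viperin, gave 42 UMIs in 37. The Ifit genes, which bind foreign RNA, were almost absent: Ifit1 had 5 UMIs in 4 members, Ifit3 had 3 in 3 and Ifit3b had 1 in 1. The members were chosen by these counts, which are given as description. Ifit3 and Ifit3b are near-identical copies, so the split of reads between them is uncertain.

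Many interferon-stimulated genes share a promoter element that the interferon-activated STAT and IRF complex binds. To show it, the 250 bases before the start site are printed for 4 genes picked because they hold it. The bases are from RefSeq on GRCm38.p6, 5′ to 3′ on the gene's strand. The genes are Isg15, which chose most members, and 3 genes outside the rule that are described below. The capitals mark every match to GAAANNGAAA, the interferon-stimulated response element, read on either strand. Overlapping matches run together.
Isg15, chr4:156200819-156201068, minus strand: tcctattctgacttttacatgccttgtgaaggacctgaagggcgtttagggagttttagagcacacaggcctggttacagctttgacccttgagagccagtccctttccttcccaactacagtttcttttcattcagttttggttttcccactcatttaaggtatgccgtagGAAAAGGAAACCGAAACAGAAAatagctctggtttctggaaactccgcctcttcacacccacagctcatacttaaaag
Bst2, chr8:71537473-71537722, minus strand: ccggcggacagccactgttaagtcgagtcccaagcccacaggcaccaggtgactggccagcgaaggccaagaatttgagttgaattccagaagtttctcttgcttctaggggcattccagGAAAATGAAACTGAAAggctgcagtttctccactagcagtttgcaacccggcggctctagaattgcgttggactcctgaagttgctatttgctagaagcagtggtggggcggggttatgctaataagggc
Gbp2, chr3:142620413-142620662, plus strand: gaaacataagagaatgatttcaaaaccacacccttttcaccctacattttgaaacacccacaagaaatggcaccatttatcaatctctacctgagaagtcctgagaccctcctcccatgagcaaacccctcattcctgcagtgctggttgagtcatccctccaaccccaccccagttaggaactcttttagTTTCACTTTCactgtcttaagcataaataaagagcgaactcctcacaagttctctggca
B2m, chr2:122147437-122147686, plus strand: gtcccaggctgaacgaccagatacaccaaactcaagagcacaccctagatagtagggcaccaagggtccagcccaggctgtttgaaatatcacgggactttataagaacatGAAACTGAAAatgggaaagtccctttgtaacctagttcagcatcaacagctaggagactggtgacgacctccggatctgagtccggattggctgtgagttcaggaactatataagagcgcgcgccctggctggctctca
Isg15 held 3 overlapping matches and Bst2 held 2, while Gbp2 and B2m held 1 each. Over windows of 300 bases, from 250 before to 50 after the start, the element was in 3.44% of 32851 promoter windows and, with several windows to some genes, in 3.99% of 27025 genes. Of the 7 rule genes with a window, 5 held it, and Irf7 and Oasl2 did not. Outside the rule, Xaf1 held 0 matches. Ifitm3 held 2, both after the start site, and Ifi27l2a had no window. Of 114 genes of the interferon lists with a window, 49 (43.0%) held it. Among the list genes that were at least 2-fold higher in the 28 cells with 2 or more rule genes, 16 of 41 held it, and among the other list genes 33 of 73. A second motif, the gamma-activated site TTCNNNGAA, was in 8.30% of all windows, in 9.55% of all genes and in 23 of the 114 list genes (20.2%). A match is a description of these letters and not a site of binding.

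Summed over all 491 members, genes outside the rule differed little from the reference. Levels are given as counts per 1000000 UMIs of the class (CPM) with a 95% Poisson interval, and folds on the log2 scale after 1 CPM was added. All intervals cover counting error only, since cells of 1 library are not replicates. A gene counted as higher or lower when its log2 fold was at least 1 in size and its level at least 20 CPM in either class. Of 5224 genes outside the 8, 2 were higher (0.0383%) and 1 was lower (0.0191%). Both higher genes were among the 36 tested of the 146 genes in 8 interferon lists. They were below 20 CPM in the reference and passed the level rule only through the members, so they had to be above the reference. The median log2 fold was 0.19 over those 36 genes and 0.01 over all genes tested. The same holds for the other list genes that were below that level in the reference. Of the 28 list genes that reached 20 CPM in the reference itself, 0 were higher and 0 lower. Of all 5006 such genes, 0% were higher and 0.02% lower. The median log2 fold of the 28 was 0.12, and 21 had a fold above 0, as had 2464 of the 5006. In the members with 1 rule gene, 16 of the 28 had a fold above 0, beside 2416 of the 5006.

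Ifitm3, a membrane protein that blocks virus entry, had 51 UMIs in 19 members (29.7 CPM, 22.1 to 39.1) against 282 UMIs in 224 reference cells (4.67 CPM, 4.14 to 5.25), a log2 fold of 2.44. Ifi27l2a, a small interferon-inducible protein, stood at 37.9 CPM (29.3 to 48.3) against 10.6 (9.83 to 11.5), a log2 fold of 1.74. The 28 cells with 2 or more rule genes held 35 of the 51 member UMIs of Ifitm3 and 25 of the 65 of Ifi27l2a. In the members with 1 rule gene Ifitm3 was at 10.1 CPM and Ifi27l2a at 25.1 CPM. Ifitm3 is therefore below the level rule in those cells, while Ifi27l2a stays past it with a log2 fold of 1.17. Ifi27l2a passed the level rule only through those cells, so it had to be above the reference. Both genes belong to families of close copies, and reads shared between copies could be counted for either.

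The lower gene was Retnla, the secreted protein RELM-alpha, which IL-4 is known to induce. Its 19 UMIs in 12 members (11.1 CPM, 6.67 to 17.3) compared with 1663 UMIs in 657 reference cells (27.5 CPM, 26.2 to 28.9). A single reference cell held 130 of those UMIs. Within the members it ran both ways, at 7.54 CPM in those with 1 rule gene and 56.9 CPM (22.9 to 117) in the 28 cells with several. The between cells were at 40.3 CPM. With 1% or 5% of cells as members its log2 fold was -0.10 or -0.11, and the call was lost.

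The other list genes at 20 CPM or more in either class missed the size rule over the members as a whole. Bst2, the tether that holds budding virus at the membrane, was at 49.6 CPM (39.6 to 61.3) against 31.0, a log2 fold of 0.66. Phf11d, an interferon-induced zinc finger protein, was at 25.7 CPM against 14.3, and the RNA-activated kinase Eif2ak2 was at 26.2 against 17.8. Ifi27 and Isg20, an exonuclease, had log2 folds of 0.33 and 0.17. The class I molecules H2-K1 and H2-D1 had log2 folds of 0.14 and 0.19. The kinase Jak1, the receptor chain Ifnar2 and the factors Stat3 and Irf2 lay between -0.06 and 0.19. None of the 10 interferon ligand genes listed had a UMI in any member, and they had 3 UMIs in the reference. Of the other genes ranked highest, Pgrmc1 (log2 fold 0.92) and Prkag1 (0.71) did not reach the size rule. After Retnla, the lowest were Isyna1 (-0.81), Phf12 (-0.80) and Rngtt (-0.77).

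Below 20 CPM, rarer list genes were higher over the 491 members by fold. Iigp1, an immunity-related GTPase, was at 13.4 CPM against 0.878, a log2 fold of 2.94, and 22 of its 23 member UMIs lay in the 28 cells with 2 or more rule genes. Zbp1, a nucleic acid sensor, was at 7.58 CPM against 0.911 (log2 fold 2.17), and Gbp2, a guanylate binding protein, at 5.83 against 0.961 (1.80). Xaf1 and Trim30a had log2 folds of 1.67 and 1.65, at 13.4 and 11.1 CPM. Without a minimum level, 16 of 128 interferon-list genes with a UMI in either class were higher, where 0.554% of all 26919 genes were.

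**Figure D2:**
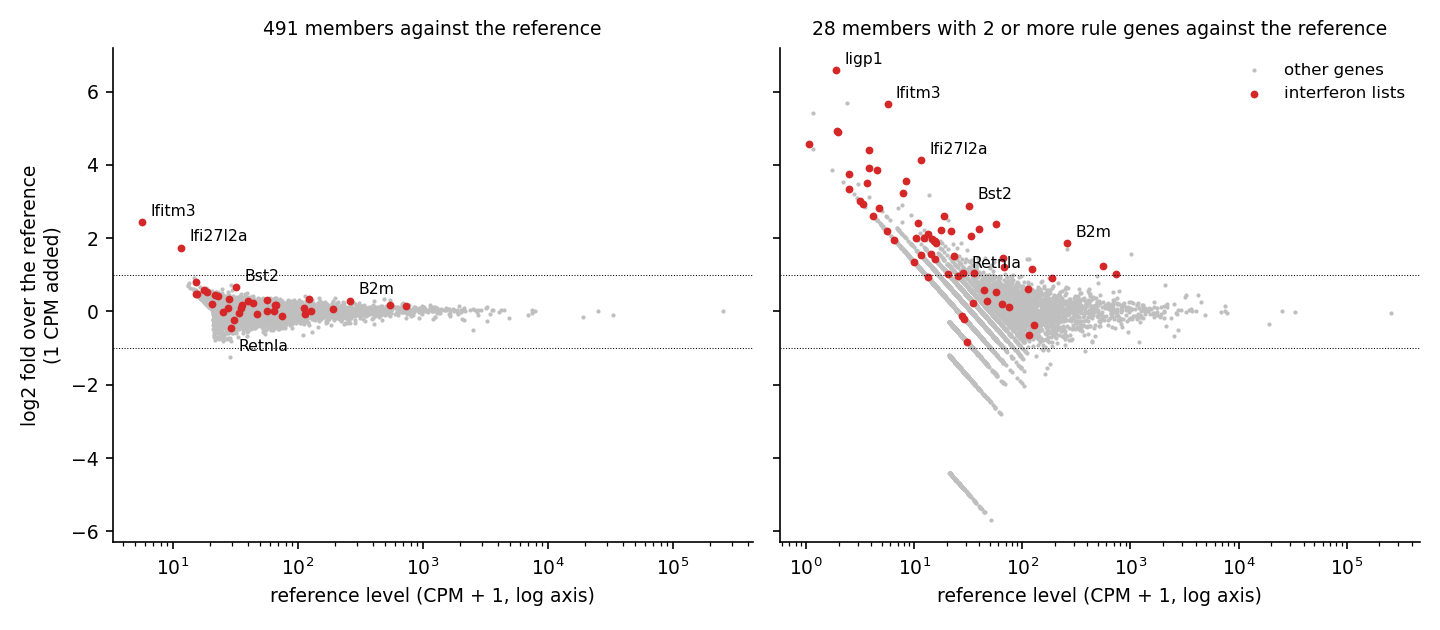
Log2 fold over the reference (1 CPM added) against the reference level (CPM + 1, log axis) for each gene outside the 8 that had at least 20 CPM in either class. Dotted lines mark log2 folds of 1 and -1. With 491 members (left), Ifitm3 and Ifi27l2a are above the upper line and Retnla is below the lower. With the 28 members that had 2 or more rule genes (right), interferon-list genes (red) reach 6.58, and the diagonal streaks are genes with few UMIs.

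The 28 members with 2 or more rule genes differed from the reference across the interferon lists. Summed over the interferon lists without MHC class I, their level was 4148 CPM against 1390 in the reference, a ratio of 2.98 (2.73 to 3.26). The ratio was 1.99 in the 20 cells with 2 rule genes and 5.98 in the 8 cells with 3 or more. The members with 1 rule gene were at 1477 CPM, a ratio of 1.06, and the between cells at 1535 CPM. The 28 cells were deeper than the other members, with a median of 4318 UMIs against 3458, and a reference matched to them in depth gave a ratio of 3.00. These cells were picked for genes of the same response, so the direction of the lists is no independent evidence.

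Counts of single genes in so small a class need care, since 28 cells held 122965 UMIs and 3 UMIs of a gene suffice for 20 CPM. Of 5752 genes tested, 527 (9.16%) were higher and 574 (9.98%) lower in the 28 cells. Of the 64 interferon-list genes tested, 49 were higher and 0 lower, but many passed the level rule only through the 28 cells and had to be higher. Among genes with at least 20 CPM in the reference, 120 of 5006 (2.4%) were higher and 574 (11.5%) lower. Of the 28 interferon-list genes at that level, 14 were higher and 0 lower, with a median log2 fold of 0.996 against -0.04 for all 5006. The members with 1 rule gene had 0 of these 28 genes higher, where the shares over all genes were 0% higher and 0.02% lower.

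The guanylate binding proteins and immunity-related GTPases, which attack the vacuoles of intracellular microbes, had the largest ratio of the interferon lists. Their sum was 447 CPM in the 28 cells against 13.8 in the reference, a ratio of 32.4 (24.2 to 42.6). It was 13.2 CPM in the members with 1 rule gene. Iigp1 had 22 UMIs in 6 of the 28 cells (179 CPM, 112 to 271) against 0.878 CPM in the reference. Most lay in few cells, with 8, 7 and 4 UMIs in single cells. Gbp2 had 7 UMIs in 3 cells (56.9 CPM against 0.961), and Igtp had 7 UMIs in 5 cells (56.9 against 2.82). Iigp1, Gbp2 and Igtp passed the level rule only through the 28 cells, so they had to be above the reference.

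The RNA and DNA sensors came to 301 CPM against 60.5, a ratio of 4.98 (3.50 to 6.87). Eif2ak2 had 14 UMIs in 8 of the 28 cells (114 CPM against 17.8). Ifih1, the sensor MDA5 of long viral RNA, had 7 UMIs in 6 cells (56.9 against 14.8). Zbp1, a sensor of Z-form nucleic acid that can start cell death, had 7 UMIs in 5 cells (56.9 against 0.911). Eif2ak2, Ifih1 and Zbp1 also passed the level rule only through the 28 cells and had to be above the reference.

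The antiviral effectors came to 2220 CPM against 554, a ratio of 4.01 (3.54 to 4.51). Ifitm3 was at 285 CPM (198 to 396) in the 28 cells against 4.67, and its 35 UMIs lay in 9 of them. Bst2 was at 236 CPM (158 to 339) against 31.0, in 12 of the 28 cells. Ifi27l2a was at 203 CPM (132 to 300) against 10.6, in 7 cells. Trim30a, a ubiquitin ligase that restrains inflammatory signalling, had 10 UMIs in 5 cells (81.3 CPM against 2.85), and Xaf1, linked to cell death, had 8 in 6 (65.1 against 3.53). Ifitm2, a relative of Ifitm3, was at 81.3 CPM against 74.1, and its interval of 39.0 to 150 held the reference level. Of these effectors, Ifitm3, Ifi27l2a, Trim30a and Xaf1 passed the level rule only through the 28 cells and had to be above the reference.

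The genes of MHC class I presentation are abundant enough for most cells to contribute. Their sum was 5310 CPM in the 28 cells against 2103, a ratio of 2.53 (2.34 to 2.73), and 2161 CPM in the members with 1 rule gene. The between cells were above the reference too, at 2712 CPM in the 147 of lowest fraction and 2340 CPM in the other 146. The part of depth in this sum was not tested, and shares of cells at equal depth are given below for single class I genes. B2m, the light chain of every class I molecule, had 117 UMIs in 25 of the 28 cells (952 CPM, 787 to 1140, against 260). H2-K1 was at 1480 CPM against 732 and H2-D1 at 1309 against 551. The immunoproteasome subunits Psmb8 and Psmb9, which cut peptides for class I, were at 301 CPM against 56.3 and 97.6 against 20.7. Close copies within the H2 family make the split between its members uncertain. MHC class II genes, which ATII cells are known to express, came to 7165 CPM against 5014, a ratio of 1.43 (1.34 to 1.53). The class II chaperone Cd74 was at 4416 CPM against 3249.

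**Figure D3:**
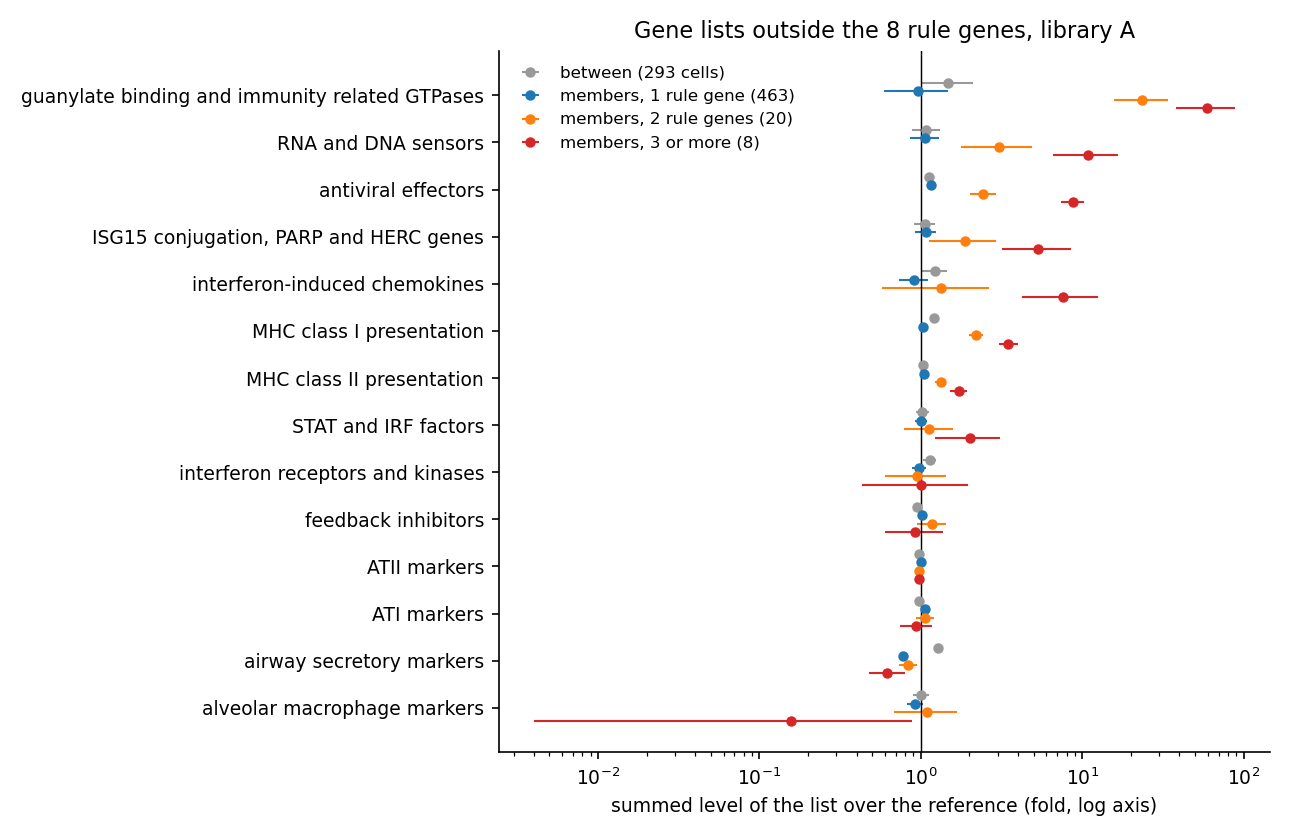
Summed level of each gene list over the reference (fold, log axis; bars are 95% exact intervals for counting error) in 4 classes of library A cells. In the 8 members with 3 or more rule genes (red) and the 20 with 2 (orange), GTPases, sensors, antiviral effectors and MHC class I lie above 1, and ATII markers lie close to 1 in all 4 classes.

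The summed receptors and kinases that start the response were near the reference. Their sum was 252 CPM in the 28 cells against 262, a ratio of 0.96 (0.65 to 1.37). Of the 5 tested, 1 was higher and 0 lower, where 9.16% of all genes tested were higher and 9.98% lower. The gene was the receptor chain Ifnar2, with 9 UMIs in 8 cells (73.2 CPM, 33.5 to 139, against 34.7, log2 fold 1.05). Without the cell of highest fraction it was at 66.8 CPM and no longer past the rule. Jak1 was at 73.2 CPM against 114. Among the factors, Stat3 was at 97.6 CPM against 127 and Irf2 at 171 against 111, both with intervals that held the reference level. The list of feedback inhibitors had a ratio of 1.11 (0.92 to 1.33). The ligand genes had 0 UMIs in the 28 cells, where 3 UMIs would be 24.4 CPM.

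A single cell weighed heavily on these sums. The member with the highest fraction had 3278 UMIs, 21 of them from 5 rule genes (11 of Isg15, 5 of Oasl2, 2 each of Irf7 and Rsad2 and 1 of Ifit3). It also held 83 UMIs of the interferon lists without MHC class I, with 11 of Ifitm3, 12 of Ifi27l2a and 7 of Iigp1. Its 12 UMIs of the chemokine Cxcl10 were all that the 28 cells had. It had 0 UMIs of Ptprc, the leukocyte surface protein CD45, and 337 of Sftpc, which at 102807 CPM (92122 to 114390) was below the reference level of 255256. Its 47 UMIs of Cd74 made 14338 CPM (10535 to 19067) against 3249, and its ATII markers summed to 171141 CPM against 348786. Without it the ratio of the interferon lists without MHC class I was 2.57 (2.33 to 2.82), and without the 4 cells of highest fraction it was 2.08 (1.85 to 2.32). Without the highest cell, 41 of 60 list genes tested were higher, where 8.85% of all genes were higher and 10.6% lower. At 20 CPM in the reference, 10 of 28 were then higher, beside 2.46% of all genes, and the chemokine list was at 91.9 CPM in place of 187, with the reference at 64.6. Iigp1 was then at 125 CPM, Ifitm3 at 200 CPM, Bst2 at 184 CPM and B2m at 861 CPM.

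**Figure D4:**
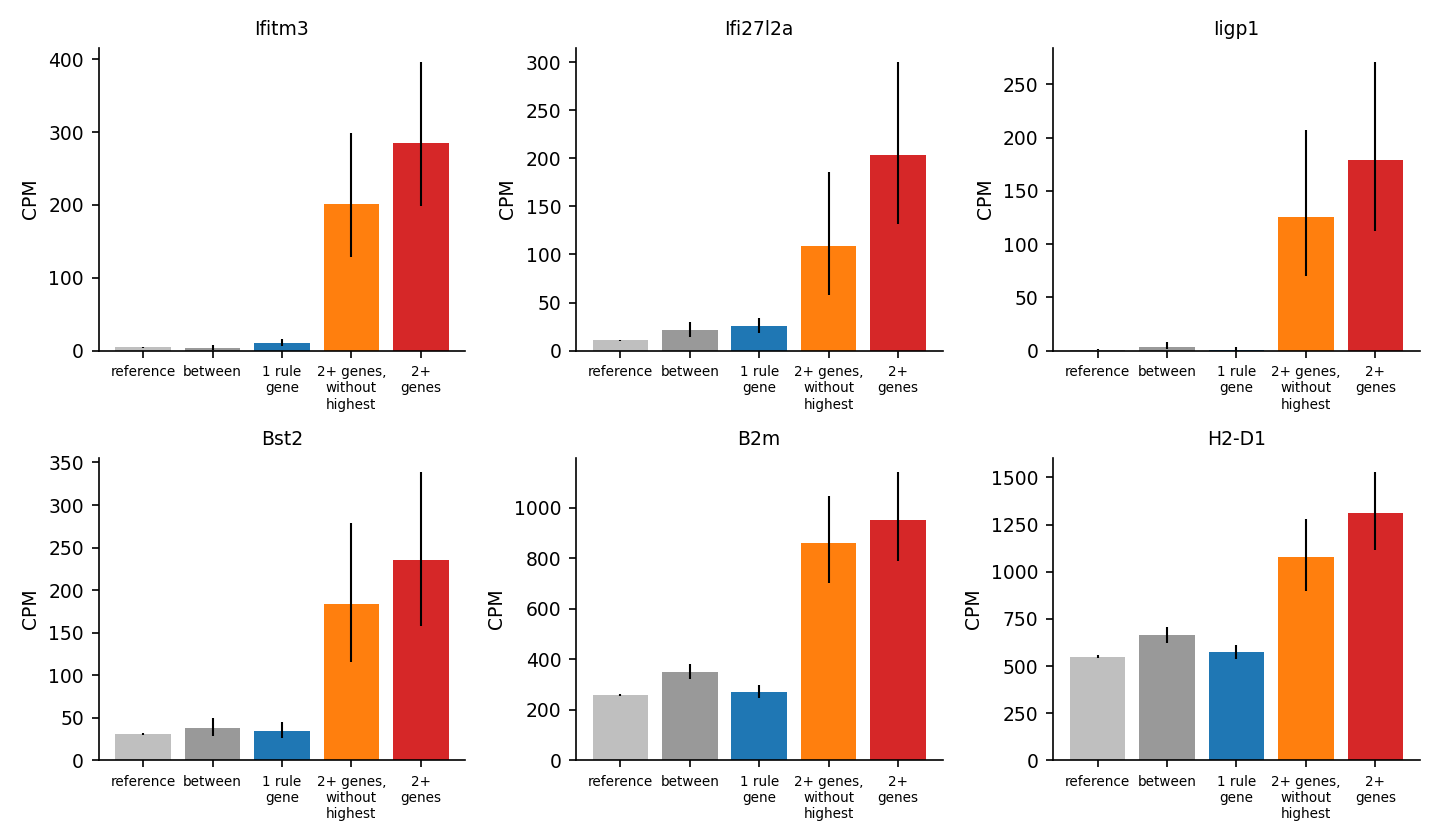
Level (CPM, with 95% Poisson intervals for counting error) of 6 genes outside the rule in the reference, the between cells, the members with 1 rule gene, and the members with 2 or more rule genes (2+) without and with the highest cell. Each gene is highest in the last class, where Ifitm3 is at 285 CPM and B2m at 952 CPM.

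Cell by cell, the 28 cells spread widely. UMIs of the interferon lists without MHC class I ranged from 845 to 25320 per 1000000 over the 28 cells, with a median of 2058. The median was 1313 in the members with 1 rule gene, 1401 in the between cells and 1312 in the reference. Of the 28 cells, 11 (39.3%, exact interval 21.5 to 59.4%) exceeded the 99th percentile of the reference, which was 3361 per 1000000. Among the 8 cells with 3 or more rule genes it was 6, and among the members with 1 rule gene it was 12 of 463 (2.59%, 1.35 to 4.48%). Among the between cells it was 6 of 293 (2.05%, 0.755 to 4.40%), an interval that overlaps that of the members with 1 rule gene. Of all 185 cells of library A above this level, 156 had 0 rule UMIs and 23 were members. Most cells above it were thus reference cells, of which a small share exceeds the level by its definition. The other 17 of the 28 cells overlapped the bulk of the reference. A median reference cell had 5 UMIs of these lists, so the value of a single cell is coarse.

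**Figure D5:**
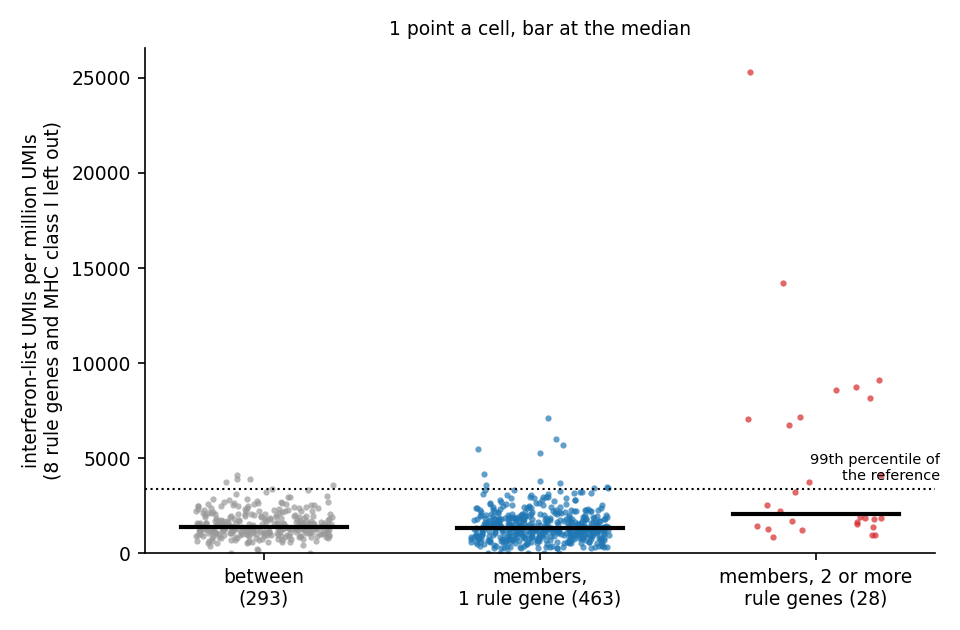
UMIs of the interferon lists per 1000000 UMIs, without the 8 rule genes and MHC class I, 1 point a cell, for the between cells, the members with 1 rule gene and the members with 2 or more. Bars mark medians of 1401, 1313 and 2058, and the dotted line marks the 99th percentile of the reference, 3361.

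At equal depth the 28 cells still had the highest shares of cells with a UMI of these genes. With each cell thinned to 2000 UMIs, Ifitm3 was seen in 8 of the 28 cells (28.6%, exact interval 13.2 to 48.7%), in 1.54% of 454 members with 1 rule gene and in 0.765% of 15304 reference cells. Unthinned, the shares were 32.1%, 2.16% and 1.44%. Bst2 was seen at equal depth in 35.7% of the 28 cells, 5.29% of the members with 1 rule gene and 5.79% of the reference. For B2m the shares were 64.3%, 35.5% and 34.5%. For Ifi27l2a they were 14.3%, 2.20% (1.06 to 4.01%) and 1.59%. The interval in the members with 1 rule gene thus held the reference share. The between cells were at 3.07% for Ifi27l2a (1.41 to 5.75%), 5.80% for Bst2, 0.341% for Ifitm3 and 42.3% for B2m (36.6 to 48.2%). For H2-D1 and H2-K1 they were at 71.7% and 73.7%, against 61.3% and 68.0% in the reference. The thinning left out 9 members and 279 reference cells with fewer UMIs. A cell type without these genes was not separated in library A, and how many of the single rule UMIs came from free RNA was not tested.

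The members with 1 rule gene were also described by which gene it was. The 240 members with Isg15 alone had Ifitm3 at 14.5 CPM (7.48 to 25.3) and Ifi27l2a at 35.0 CPM (23.4 to 50.2), above the reference levels of 4.67 and 10.6. The 124 members with Irf7 alone had 0 UMIs of Ifitm3, which allows up to 8.57 CPM, and Ifi27l2a at 9.30 CPM (2.53 to 23.8). The intervals of these classes overlap for both genes. The interferon lists without MHC class I came to 1524 CPM with Isg15 alone (1441 to 1610), 1320 CPM with Irf7 alone (1214 to 1434), 1366 CPM in the 31 cells with Rsad2 alone (1151 to 1610), 1593 CPM in the 34 with Usp18 alone (1371 to 1841) and 1810 CPM in the 30 with Oasl2 alone (1558 to 2092). In the last class Ifi27l2a was at 49.2 CPM (16.0 to 115). Along the fraction itself, 27 of the 28 cells with several rule genes were among the 245 members of highest fraction. In those 245 cells Ifitm3 was at 58.2 CPM, and in the other 246 members it was at 6.37 CPM (2.34 to 13.9). Besides Ifi27l2a, the members with 1 rule gene had 1 more gene higher of 5254 tested (0.0381% with both; 0.019% were lower), Scgb3a2, a secretory protein of airway cells. Its 33 UMIs lay in 5 cells, 16 of them in a single cell. Scgb3a2 was at 6.57 CPM in the reference and, like Ifi27l2a, passed the level rule only through these members.

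The members were ATII cells by their markers. The 20 ATII markers summed to 348451 CPM in the members, 341756 CPM in the 28 cells with several rule genes and 348786 CPM in the reference, and Sftpc, surfactant protein C, was seen in every cell. Of the 20, 0 were past the size rule in either comparison. Over all genes tested, 0.0383% were higher and 0.0191% lower in the members, and 9.16% and 9.98% in the 28 cells. In the members the count of 0 is therefore near the share over all genes. The 16 genes of surfactant lipids and lamellar bodies had a median log2 fold of -0.04 in the members. Markers of ATI cells, the flat gas-exchange cells, came to 2831 CPM in the members against 2682, and transitional markers to 3696 against 3216, of which Krt18 had a log2 fold of 0.23. Scgb1a1, the secretory protein of airway club cells, was at 1748 CPM in the members against 2503, a log2 fold of -0.52 that was 0.11 with a reference matched in depth and -0.0039 with 5% of cells as members. Malat1, a nuclear RNA, was at 17240 CPM against 19074.

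Markers of most other cell types were at or below the reference level in the members with several rule genes. T and NK cell, fibroblast and erythroid markers had 0 UMIs in the 28 cells, and Ptprc had 0, where 3 UMIs would be 24.4 CPM. Each gene of these lists was below 20 CPM in the reference too, so counts of 0 tell little about these cell types. Of the ciliated list 3 genes were tested, all 3 with a fold above 0 and a median log2 fold of 0.46. Among all 5752 genes tested, 3125 had a fold above 0. Endothelial markers were at 48.8 CPM in those cells against 105 in the reference, and alveolar macrophage markers were at 179 CPM against 207. The dendritic cell list was at 236 CPM against 36.6, all of it Bst2, which is itself an interferon gene. Monocyte and interstitial macrophage markers were at 830 CPM against 621, a ratio of 1.34 (1.09 to 1.62). Of its 16 genes 3 were tested and 1 was higher, Cd14, at 114 CPM against 19.3, where 9.16% of all genes tested were higher. Cd14 passed the level rule only through the 28 cells, so it had to be above the reference. Its part in the results was not tested. None of the 28 cells was among the 5% of highest doublet score, a measure of likeness to simulated mixtures of 2 cells, against 4.90% of the reference. The median mitochondrial share was 2.49% in the 28 cells and 2.44% in the reference. Of the members, 6 had a barcode that another library also used, where 87 such barcodes were in library A.

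Under the same rule a smaller share of the members had a single rule UMI in the other libraries. Library B had 5593 cells with a median of 8349 UMIs, library C 14580 with 3341, and library A a median of 3749. Of 167 members in library B, 35.3% had a single rule UMI and 74 (44.3%) had 2 or more rule genes. Of 437 members in library C, 76.4% had a single rule UMI and 62 (14.2%) had 2 or more. Cells with 2 or more rule genes made up 1.66% of library B (1.34 to 2.03%) and 0.446% of library C, against 0.171% in library A. Depth differed between the libraries too, and its part in these shares was not tested. In library B, 83 of 4974 genes were higher in the members (1.67%) and 66 lower (1.33%), and in library C 36 of 4705 (0.765%) and 72 (1.53%).

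Ifitm3 set the libraries apart already in cells without a rule UMI. The references of libraries A, B and C had it at 4.67, 79.0 and 106 CPM, and the members at 29.7, 472 and 274 CPM. Ifi27l2a was at 10.6, 4.93 and 2.73 CPM in the 3 references and at 37.9, 161 and 17.2 CPM in the members. Retnla was at 27.5, 12116 and 22588 CPM in the 3 references, in the same order. The summed interferon lists without MHC class I were 2.98 times the reference in the 28 members of library A with 2 or more rule genes, 2.58 times (2.49 to 2.69) in the 74 such members of library B and 2.70 times (2.53 to 2.88) in the 62 of library C. With 1 library each and no label for any of them, a difference between libraries has no replicate and was not tested.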

How the data were processed

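Per the labels' protocols, single cells were captured with a 10x Chromium 3′ kit, and per the submitters' processing notes the reads were processed with Cell Ranger 6.0.1 against GRCm38 (mm10). The authors deposited UMI counts of 52636 genes in 36584 barcodes as 1 matrix. Its 3 barcode prefixes match no label, so they are called libraries A, B and C by first appearance and the matrix is 1 sample. Gene IDs were named with GENCODE vM21 (52403 matched, 233 did not). Cells with at least 1000 UMIs, 500 genes and at most 15% mitochondrial UMIs were kept, which removed 44 barcodes and none of library A. Doublets were scored with simulated doublets and not removed. Per-sample value columns not used: 0.

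UMIs were summed over each class of cells and scaled to CPM. A gene was tested with at least 20 CPM in either class and counted as changed at a log2 fold of 1 or more after adding 1 CPM. Intervals are exact at 95% (Poisson, conditional for ratios, Clopper-Pearson for shares). Floors are 3 counts. The procedure was tested on simulated data with 200 changed genes among 5006 checked. The members, the 34 gene lists and the tests were chosen with earlier results of these data known. Named genes were up to 6 past the size rule and 2 others of highest level per interferon list, up to 3 or the highest per other list, and the 20 highest and 10 lowest of all genes. The genes named in the 28 cells with several rule genes were chosen after their values were seen. Sums and intervals used scipy 1.17.1 under Python 3.11.15, doublet scores scikit-learn 1.9.0, and TMM scaling edgeR 4.0.16. A choice by 4 rule genes read in the other 4 was computed but is not described, since it reads the rule's own genes. The result of 1 gene is not reported here. Alternatives are listed in the closing section.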

Additional observations from a re-analysis of the deposited data

How the results depend on the processing

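The 2 higher genes, 1 lower gene, 2 higher interferon-list genes and median log2 fold of 0.19 over the interferon lists were recomputed under 12 alternatives, with 2 more added after seeing the data. How the members were chosen mattered most. With 1% of cells as members, 49 of 5368 genes were higher (0.913%), 65 lower and 18 of 47 list genes higher, with a median of 0.75. With the members that had 2 or more rule genes these were 527 of 5752 (9.16%), 574, 49 of 64 and 1.94. With 5% of cells they were 1 higher, 0 lower and 1 list gene. With members of 1 rule gene (added), 1 list gene was higher and the median was 0.048. A reference matched in depth had as few cells as the members and gave 7 higher, 6 lower and a median of 0.29. Without a minimum level the counts were 149 of 26919 (0.554%), 371 and 16 of 128, and with at least 50 CPM they were 0, 0 and 0. Members chosen by 4 rule genes gave 4 lower genes, and cells with at least 3000 UMIs also gave 4. The median stayed above 0 in every alternative run, but list genes that passed the level rule only through the members had to be above the reference. Retnla turned to a log2 fold of 1.02 in the members with 2 or more rule genes, and Iigp1 to -0.21 in those with 1. Retnla was at -0.10 with 1% of cells and -0.11 with 5%, so its call was lost. Single genes elsewhere kept their direction where their fold had been at least 1. The ratio of 2.98 in the 28 cells was 2.57 without the highest cell, 2.08 without the 4 highest and 2.58 with TMM scaling, all added after seeing the data. TMM moved the median log2 fold of all genes there from 0.06 to -0.17. With TMM, 10 of the 28 interferon-list genes at 20 CPM in the reference were higher in those cells and 1, Jak2, was lower (14 and 0 without TMM), where 1.06% of all genes at that level were higher and 14.8% lower. No paired analysis was possible because the matrix is 1 sample and no result comes from a test, and no replicate could be left out.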

Other observations

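Of 10 tested genes of the NF-kB and acute phase list, 3 were higher in the 28 cells with 2 or more rule genes. They were Lrg1, Lcn2 and Il6. A further 1 was lower, Nfkb1, at 24.4 CPM against 63.1, where 9.16% of all genes were higher and 9.98% lower. Il6 had 5 UMIs (40.7 CPM against 14.1). It passed the level rule only through the 28 cells, so it had to be above the reference. The median log2 fold of the 10 was 0.42. Without the cell of highest fraction Cxcl2 was lower too, at 16.7 CPM against 38.8. The genes described next were picked after their values were seen. Lrg1, a secreted glycoprotein of the acute phase response, had 102 UMIs in 16 of the 28 cells (830 CPM, 676 to 1007) against 256 CPM in the reference, with at most 17 UMIs in a cell. It was at 225 CPM (202 to 249) in the members with 1 rule gene and at 401 CPM in the between cells. Lcn2, which withholds iron from bacteria, was at 2985 CPM against 1013, but 210 of its 367 UMIs lay in a single cell that was not the cell of highest fraction. Cd14, a receptor for bacterial lipopolysaccharide, had 14 UMIs in 7 of the 28 cells (114 CPM, 62.2 to 191). The transcript AW112010 had 15 UMIs, 10 of them in 1 cell, at 122 CPM against 1.37 in the reference. Ly6i, of the Ly6 family of surface proteins, had 15 UMIs in 3 cells (122 CPM against 12.7). Like Il6, the genes Cd14, AW112010 and Ly6i passed the level rule only through the 28 cells, so they had to be above the reference.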
